A study of Mus musculus with 6 samples.

Results

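The genes described here are the Myc family members Myc and Mycn and 48 genes of ribosome biogenesis, 50 genes in all of the 54532 in the table. They were found in the table by gene symbol, and all 50 passed the filter on low counts, which left 16606 genes. The RNA came from primary neurospheres, free-floating colonies of neural progenitor cells grown from C57BL/6 embryos at E14.5 and harvested on day 6 of culture in 20 ng/ml EGF and 20 ng/ml bFGF. The 3 control libraries (WT 3, WT 6 and WT 7) are labelled WT and the 3 mutant libraries (KO 1, KO 2 and KO 3) Ash2l cKO. In the mutant, a conditional knockout of Ash2l is driven by D6-Cre, a transgene active in the dorsal forebrain. Ash2l encodes a shared subunit of the COMPASS complexes, which methylate histone H3 at lysine 4. The labels do not give the floxed exons, whether WT embryos carried Cre, or which forebrain part was dissected, since they name both the dorsal cortex and a wall of the lateral ventricle. Separate embryos or cultures are not stated either, so p-values here refer to variation among libraries, some of which may be technical. Where 3 values are given for a group, they follow the order WT 3, WT 6, WT 7 or KO 1, KO 2, KO 3.

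Ribosome biogenesis begins in the nucleolus, where RNA polymerase I transcribes the precursor of the 18S, 5.8S and 28S ribosomal RNAs. Small nucleolar ribonucleoproteins (snoRNPs) modify that precursor. Box C/D particles add methyl groups to riboses and box H/ACA particles convert uridine to pseudouridine. Large sets of assembly factors then cut, fold and export the small and large subunits. Myc and Mycn are transcription factors that dimerise with Max, bind E-boxes (CACGTG) and are known as activators of these genes, and Mycn is the family member best known from neural progenitors of the embryonic brain.

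Library totals ran from 16764480 to 21983659 counts, and levels are given as CPM, the count scaled to library size, on which 3 reads are worth 0.136 to 0.179. The progenitor markers Sox2 and Nes were present in both groups, with means of 579 ± 40.2 CPM (WT) and 261 ± 66.1 CPM (KO) for Sox2 and of 134 ± 38.8 and 623 ± 129 CPM for Nes (SD, n = 3 each). Of 10 markers of radial glia and neural stem cells 5 were called lower (Sox2, Pax6, Hes5, Sox9 and Prom1), 1 higher (Nes) and 4 neither, with a median log2 fold change of -0.76, and 3 to 5 were called lower when 1 library was left out. The part of this in the results below was not tested. Ash2l averaged 113 ± 3.55 CPM (WT) and 95.9 ± 8.41 CPM (KO) (SD, n = 3 each, log2 fold change -0.24, SE 0.10, edgeR adjusted p = 0.119). A count over the whole gene includes exons that a deletion leaves in place, but the part of such exons in the KO level was not measured. WT 3 stood apart from the other WT libraries and nearest to KO on the first principal component (-25.5 against -81.7 and -85.7, with KO at 53.5 to 76.8), so values without it are given where they matter.

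Of the 50 genes 29 rose in KO and 0 fell (edgeR quasi-likelihood test, Benjamini-Hochberg adjusted over all 16606 genes). Across all tested genes 13.5% were called higher and 15.5% lower, and among the 8983 genes at least as abundant as the least abundant member (Polr1e, 19.8 CPM on average) 15.6% were called higher. All 50 log2 fold changes were above 0 with all 6 libraries (those of Myc, Ubtf and Rrp1 turned without WT 3), from 0.02 for Rrp1 to 1.08 for Dkc1. Their median log2 fold change was 0.59, or 1.51-fold, where the median of all tested genes was 0.00. In 39 of the 50 genes every KO library lay above every WT library, as in 23.5% of all tested genes and 25.4% of those at least as abundant as Polr1e. In 0 members did every KO library lie below, against 25.2% of tested genes. At an unadjusted p under 0.05, 36 members were higher and 0 lower in edgeR, against 21.3% and 22.4% of all tested genes, and 0 were lower with DESeq2 or limma-voom. The 50 genes together held 0.348%, 0.374% and 0.360% of all counts in the WT libraries, against 0.545%, 0.590% and 0.510% in the KO libraries. In RNA of whole spheres, more cells that transcribe these genes and more of their RNA per cell cannot be told apart.

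**Figure D1:**
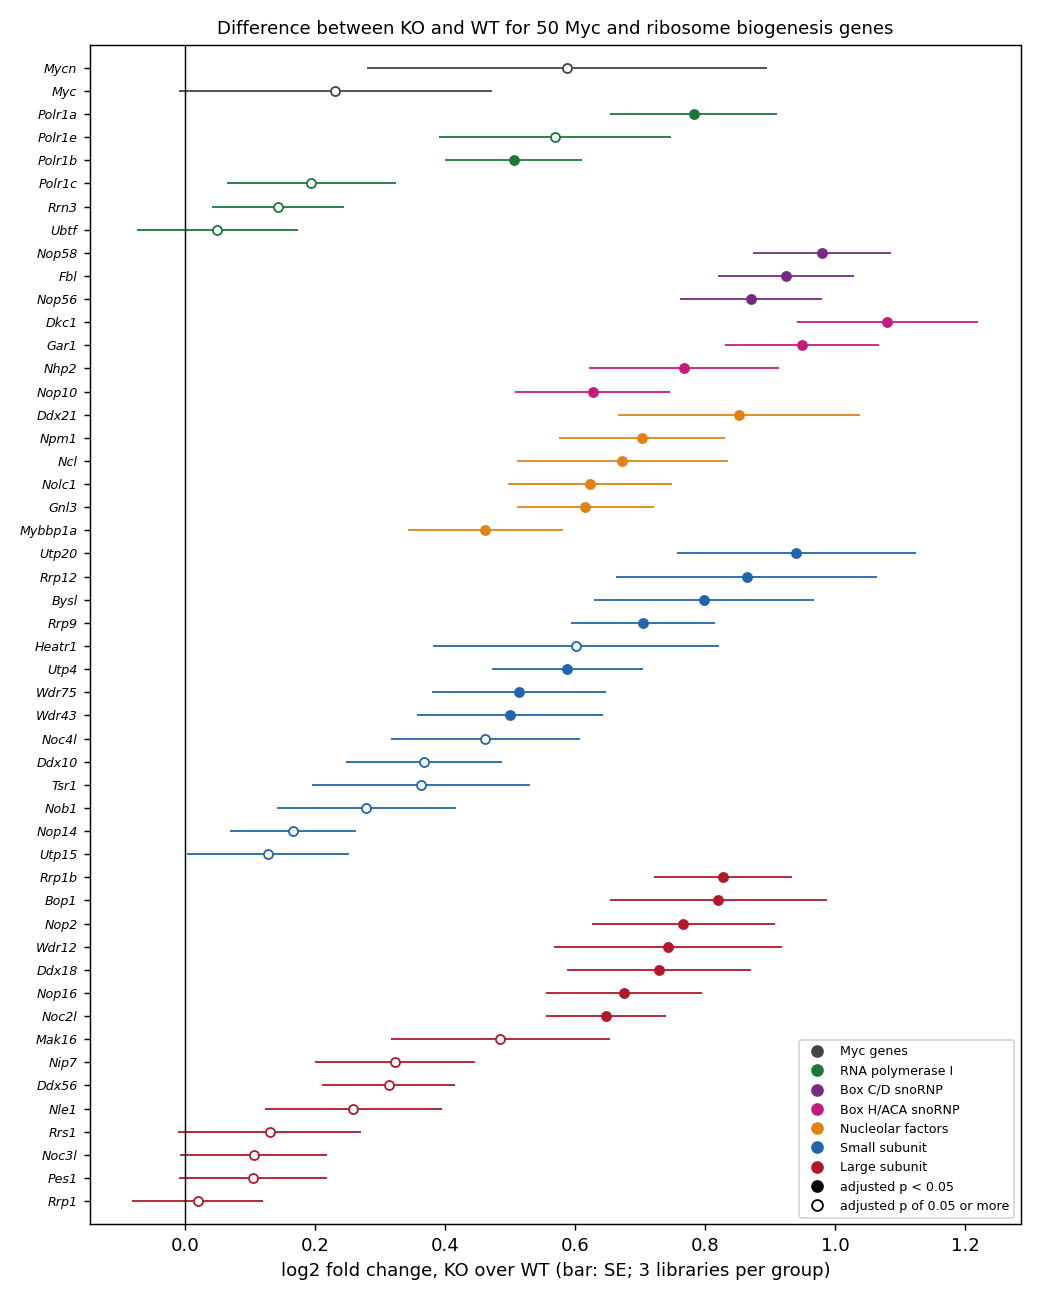
Log2 fold change of KO over WT (horizontal axis, bars are the SE, 3 libraries per group) for the 50 genes, coloured by role and filled where the adjusted p is under 0.05. All 50 points lie to the right of 0, 29 are filled, and all 13 of the box C/D, box H/ACA and nucleolar groups are among those filled.

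The roles are given here by their medians. The median log2 fold change was 0.92 for the box C/D proteins, 0.86 for the box H/ACA proteins, 0.65 for the multifunctional nucleolar factors, 0.51 for small subunit factors, 0.48 for large subunit factors and 0.35 for RNA polymerase I and its initiation factors. The differences between these medians were not tested. The WT libraries varied little as a set. The mean log2 CPM of the 48 genes other than Myc and Mycn was 5.64, 5.79 and 5.74 in the WT libraries against 6.27, 6.38 and 6.17 in the KO libraries. WT 3 was the lowest WT library in 33 of the 50 genes, and KO 3 the lowest KO library in 29.

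**Figure D2:**
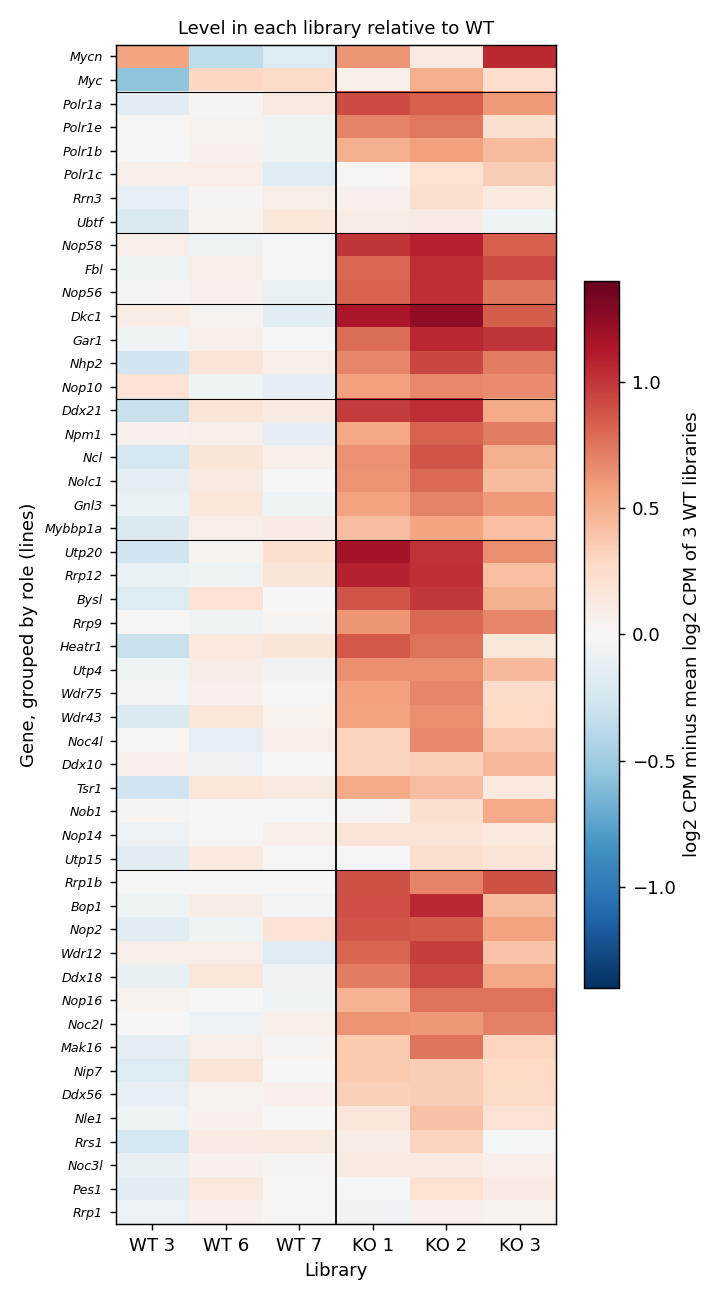
Level of each of the 50 genes (rows, grouped by role between lines) in each library (columns), as log2 CPM minus the mean log2 CPM of the 3 WT libraries. The 7 snoRNP rows are red in all KO columns, KO 3 is the lowest KO column in 29 rows, and Myc and Mycn are the rows in which the WT libraries differ most.

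Among the upstream regulators, neither Myc nor Mycn passed the test. Myc (ENSMUSG00000022346, chromosome 15 from 61985391 to 61990374 on mm10) measured 47.3, 85.7 and 84.1 CPM in the WT libraries and 73.3, 99.5 and 82.0 CPM in the KO libraries. The groups overlapped, with WT 3 the lowest of all 6 libraries and the other 2 WT libraries within the KO range. Its log2 fold change was 0.23 (SE 0.24, edgeR adjusted p = 0.489), and without WT 3 it was -0.00106. Mycn (ENSMUSG00000037169, chromosome 12 from 12936093 to 12941914) measured 47.1, 25.2 and 28.3 CPM in the WT libraries and 49.4, 35.2 and 66.3 CPM in the KO libraries. Here WT 3 was the highest WT library and lay above KO 2. The log2 fold change of Mycn was 0.59 (SE 0.31, edgeR adjusted p = 0.185). It passed without WT 3 (0.91, edgeR adjusted p = 0.0286) and with limma-voom (0.73, adjusted p = 0.0331). The 2 genes thus had opposite orders within WT, Myc low and Mycn high in WT 3. Their summed level, computed after the values were seen and not tested, was 94.5, 111 and 112 CPM across WT against 123, 135 and 148 CPM across KO. That sum leaves out the family member Mycl, which went the other way. Mycl measured 182, 107 and 105 CPM across WT against 59.3, 46.0 and 79.3 CPM across KO. Per length, on the FPKM scale, the mean level of Myc was 25.9 (WT) and 31.8 (KO), above that of Mycn at 10.02 and 15.5.

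Partners and antagonists of the Myc proteins, listed with the family member Mycl, moved in both directions, mostly down. A fall was called for 5 of these 10 genes and a rise for 1, and the median log2 fold change was -0.43. Max, the obligate dimer partner, measured 109, 135 and 127 CPM in the WT libraries and 75.9, 84.9 and 82.3 CPM in the KO libraries, a fall of 0.61 on the log2 scale (log2 fold change -0.61, SE 0.11, edgeR adjusted p = 0.0098). The groups did not overlap. The Mxd proteins, of which Mxi1 is one, compete with Myc for Max and repress. Of their genes Mxd4 (-0.96, SE 0.12, edgeR adjusted p = 0.00295), Mxd1 (-1.09, SE 0.20, edgeR adjusted p = 0.009) and Mxi1 fell. Mxd3, the member of that family known from S phase cells, rose from 3.20, 2.16 and 1.70 CPM to 18.8, 26.3 and 23.2 CPM (log2 fold change 3.28, SE 0.29, edgeR adjusted p = 0.00117). The falls of Mycl (-1.09, SE 0.28) and Mxi1 (-1.12, SE 0.30) had calls that ended when WT 6, KO 1 or KO 2 was absent, and for Mxi1 also WT 7. The 4 others, Mnt, Mga, Mlx and Mlxip, did not pass and had overlapping groups.

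**Figure D3:**
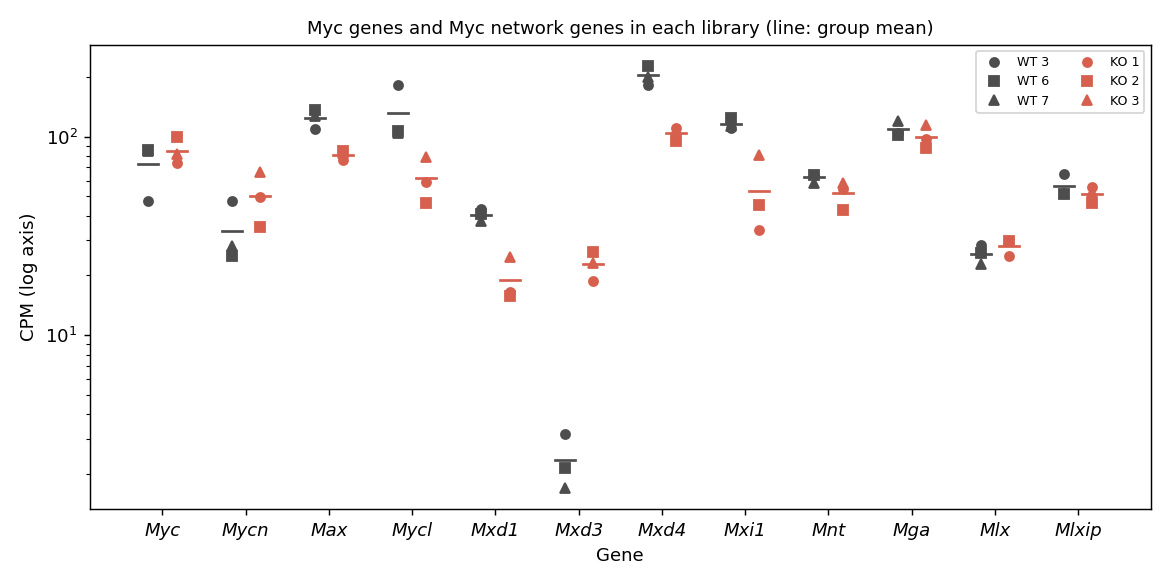
CPM (log axis) of Myc, Mycn and 10 genes of the Myc network in each of the 6 libraries, WT in grey and KO in red, with a line at each group mean. Myc and Mycn overlap between the groups, Max, Mycl, Mxd1, Mxd4 and Mxi1 are lower in all KO libraries, and Mxd3 rises from 1.70 to 3.20 CPM in WT to 18.8 to 26.3 CPM in KO.

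RefSeq promoter windows (GRCm38.p6, 250 bases before to 50 after a gene's start) were found for 43 of the 50 genes. The 7 without an entry are Myc, Fbl, Npm1, Rrp12, Bop1, Rrs1 and Mak16. The E-box CACGTG, which reads the same on both strands, was searched for in these windows because it is the site that Myc and Max bind. It was present in windows of 9 of the 43 members (20.9%), against 11.3% of the 11509 tested genes with a window and 8.09% of all 27025 genes with one. The 5 sites below, with the E-box in capitals in 30 bases of the gene's strand, are from 4 members that rose and from Rrn3, which did not pass (log2 fold change 0.14). The sites of Utp20, Utp4 and Mybbp1a begin 37, 15 and 40 bases after the start, and those of Nop2 and Rrn3 begin 60 and 48 bases before it. The last 2 are shown because no other of the 43 members has an E-box upstream of its start, and were chosen after their values were seen. Rrn3 has a further one 215 bases before its start.
Utp20 (chr10:88826765-88826794, minus strand): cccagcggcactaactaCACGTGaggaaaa
Utp4 (chr8:106893643-106893672, plus strand): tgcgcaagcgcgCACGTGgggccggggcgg
Mybbp1a (chr11:72441347-72441376, plus strand): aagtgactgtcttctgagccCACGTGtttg
Nop2 (chr6:125131811-125131840, plus strand): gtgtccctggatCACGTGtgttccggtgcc
Rrn3 (chr16:13780639-13780668, plus strand): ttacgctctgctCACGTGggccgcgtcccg
Of the 9 members with an E-box 5 rose (median log2 fold change 0.46), and of the 34 without one 20 rose (median 0.62). The variant CACGCG, searched on both strands and not overlapping CACGTG, was present for 17 of the 43 members (39.5%) and for 19.8% of tested genes. These shares are descriptions, and a match is not a bound site.

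The snoRNP genes, the roles with the highest medians, differed widely in the CG content just upstream of their starts. The median ratio of observed to expected CG dinucleotides was 0.841 in the member windows and 0.732 in those of tested genes. COMPASS complexes are known to act at promoters rich in CG. The 100 bases before the start are therefore shown, with CG in capitals, for the 4 snoRNP genes with no exon in that stretch. An exon overlaps the stretches of Nop58 and Nhp2, which hold 6 and 4 CG dinucleotides, and Fbl has no window.
Gar1 (chr3:129831397-129831496, minus strand): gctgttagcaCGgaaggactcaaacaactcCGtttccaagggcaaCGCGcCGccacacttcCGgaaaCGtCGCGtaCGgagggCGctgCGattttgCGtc
Nop56 (chr2:130274312-130274411, plus strand): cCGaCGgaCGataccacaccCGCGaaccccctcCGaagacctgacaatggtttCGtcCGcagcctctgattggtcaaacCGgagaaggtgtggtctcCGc
Dkc1 (chrX:75095754-75095853, plus strand): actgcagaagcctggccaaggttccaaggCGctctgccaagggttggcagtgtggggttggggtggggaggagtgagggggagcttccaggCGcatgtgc
Nop10 (chr2:112261826-112261925, plus strand): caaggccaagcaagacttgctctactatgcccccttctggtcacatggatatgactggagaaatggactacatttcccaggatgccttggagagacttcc
These stretches hold 13, 10, 2 and 0 CG dinucleotides in that order, and the log2 fold changes of the 4 genes were 0.95, 0.87, 1.08 and 0.63. None of the 4 stretches holds CACGTG.

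All 3 box C/D proteins rose, and they are core subunits of 1 particle. Fbl, the ribose methyltransferase fibrillarin, measured 91.0, 102 and 93.3 CPM in the WT libraries and 167, 196 and 181 CPM in the KO libraries (log2 fold change 0.92, SE 0.10, edgeR adjusted p = 0.00226). Nop58, a scaffold of the particle, measured 73.5, 66.0 and 68.4 CPM across WT against 138, 148 and 124 CPM across KO (0.98, SE 0.11, edgeR adjusted p = 0.00197), the lowest p of the 50 genes. Its partner Nop56 measured 93.3, 94.9 and 85 CPM across WT against 162, 184 and 153 CPM across KO (0.87, SE 0.11, edgeR adjusted p = 0.00285). The groups were apart in all 3 genes, and each call held whichever library was left out.

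All 4 box H/ACA proteins rose as well. Dkc1, the pseudouridine synthase dyskerin, measured 37.6, 36.3 and 31.5 CPM in the WT libraries and 77.4, 82.6 and 62.9 CPM in the KO libraries. This was a 2.11-fold rise, the largest of the 50 (log2 fold change 1.08, SE 0.14, edgeR adjusted p = 0.00311). Gar1, which loads and releases the substrate RNA, measured 28.6, 31.2 and 29.5 CPM across WT against 51, 61.7 and 59.5 CPM across KO (0.95, SE 0.12, edgeR adjusted p = 0.00282). In both genes the lowest KO library lay well above the highest WT library. Nhp2, a core subunit that binds the RNA, measured 60.5, 82.9 and 77.9 CPM across WT against 117, 139 and 120 CPM across KO (0.77, SE 0.15, edgeR adjusted p = 0.0102). Nop10, the smallest subunit, measured 54.2, 45.4 and 43.0 CPM across WT against 70.2, 75.3 and 74.7 CPM across KO (0.63, SE 0.12, edgeR adjusted p = 0.0102), again without overlap. The call of Nop10 ended without WT 6. Per length, Nhp2 (mean FPKM 62.8 in WT and 112 in KO) and Nop10 (42.1 and 67.4) were well above Gar1 (16.95 and 34.1) and Dkc1 (8.35 and 18.4).

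Among 5 genes for snoRNP assembly factors, which are not members, 4 rose and 0 fell, with 2 called without WT 6, WT 7, KO 1 or KO 2. They were the AAA+ ATPases Ruvbl1 (log2 fold change 0.97, SE 0.12, edgeR adjusted p = 0.0027) and Ruvbl2 (0.81, SE 0.10, edgeR adjusted p = 0.0027), the dyskerin chaperone Shq1 (1.05, SE 0.22, edgeR adjusted p = 0.015) and Nufip1. Shq1 kept its call only when WT 3 or KO 3 was the library left out, and Nufip1 lost it whichever of the 6 was left out. Naf1 did not pass (0.41, SE 0.15, edgeR adjusted p = 0.0735). A separate list holds 9 noncoding host genes, whose introns carry snoRNAs. Of these 8 were tested, 1 rose (Snhg4, 1.30, SE 0.17, edgeR adjusted p = 0.00317), 0 fell (3 and 0 at an unadjusted p in edgeR, and 3 and 1 with limma-voom) and the median was 0.11. The 1 rise among 8 is a share near the 13.5% of all tested genes called higher. Among the members, 7 have a snoRNA gene within them on the same strand, and 6 of these rose (Nop56, Nop58, Dkc1, Ncl, Gnl3 and Wdr43, log2 fold changes of 0.50 to 1.08), while Tsr1 did not pass. The noncoding hosts and the member hosts were not tested against each other.

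All 6 multifunctional nucleolar factors rose. Npm1, nucleophosmin, the most abundant of the 50 genes per length at a mean FPKM of 128 in WT and 217 in KO, measured 364, 365 and 318 CPM in the WT libraries and 508, 618 and 578 CPM in the KO libraries (log2 fold change 0.70, SE 0.13, edgeR adjusted p = 0.00884). Ncl, nucleolin, a chaperone of pre-ribosomal RNA, measured 383, 505 and 473 CPM across WT against 704, 829 and 636 CPM across KO (0.67, SE 0.16, edgeR adjusted p = 0.0228). Gnl3, nucleostemin, a GTPase known from proliferating stem cells, went from 56.0, 66.1 and 57.1 CPM to 88.3, 96.4 and 90.0 CPM (0.62, SE 0.11, edgeR adjusted p = 0.00724). The groups did not overlap in these 3 genes. Nolc1, a snoRNP chaperone, measured 84.6, 101 and 93.0 CPM across WT against 144, 160 and 126 CPM across KO (0.62, SE 0.13, edgeR adjusted p = 0.0127). Mybbp1a, a nucleolar protein that binds Myb, measured 160, 195 and 199 CPM across WT against 248, 269 and 246 CPM across KO (0.46, SE 0.12, edgeR adjusted p = 0.0285). The groups were apart in both, and the helicase gene Ddx21 rose by 0.85 (SE 0.19). Only Npm1 and Gnl3 kept the call whichever library was left out. That of Nolc1 ended without WT 7, that of Ddx21 without KO 1 or KO 2, and those of Ncl and Mybbp1a without any 1 of WT 6, WT 7, KO 1 or KO 2.

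In the RNA polymerase I group 2 of 6 genes rose. Polr1a, the largest subunit of the enzyme, measured 41.6, 47.8 and 50.5 CPM in the WT libraries and 87.4, 82.9 and 70.3 CPM in the KO libraries (log2 fold change 0.78, SE 0.13, edgeR adjusted p = 0.00623). Polr1b, the second largest, measured 33.8, 35.4 and 32.4 CPM across WT against 47.8, 50.5 and 45.9 CPM across KO (0.50, SE 0.11, edgeR adjusted p = 0.014), and its call ended without WT 6, WT 7 or KO 2. Polr1e, another subunit, measured 16.04, 16.5 and 15.2 CPM across WT against 25.8, 26.5 and 18.5 CPM across KO and just missed the threshold (0.57, SE 0.18, edgeR adjusted p = 0.0517). Its groups did not overlap, and it passed under 7 alternatives, DESeq2 (adjusted p = 0.0331) and leaving out KO 3 (edgeR adjusted p = 0.0213) among them.

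The initiation factors Ubtf and Rrn3 and the subunit Polr1c had smaller log2 fold changes. Ubtf, the upstream binding factor that keeps ribosomal DNA open, measured 189, 225 and 239 CPM in the WT libraries and 233, 235 and 208 CPM in the KO libraries (log2 fold change 0.05, SE 0.12, edgeR adjusted p = 0.783), and without WT 3 the sign turned (-0.05). Rrn3, which recruits the polymerase, was at 0.14 (SE 0.10, edgeR adjusted p = 0.31), and Polr1c, a subunit shared with RNA polymerase III, at 0.19 (SE 0.13, edgeR adjusted p = 0.283). All 3 had overlapping groups. Among 8 further genes for polymerase I subunits and the promoter selectivity factor SL1, 1 rose (Taf1d, 0.58, SE 0.10, edgeR adjusted p = 0.00834, lost without WT 6) and 0 fell, and their median was 0.03. A rise in 1 of 8 is a share near the 13.5% of all tested genes called higher.

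Of 14 small subunit factors 7 rose. Utp20, a scaffold of the small subunit processome, measured 26.8, 33.6 and 37.8 CPM in the WT libraries and 72.4, 65.2 and 50.9 CPM in the KO libraries (log2 fold change 0.94, SE 0.18, edgeR adjusted p = 0.0112). Rrp9, a protein of the U3 snoRNP, measured 28.5, 27 and 28.9 CPM across WT against 43.2, 49.2 and 45.1 CPM across KO (0.70, SE 0.11, edgeR adjusted p = 0.0055). Utp4, of the early subcomplex that joins transcription to processing, measured 30.5, 34.2 and 30.8 CPM across WT against 49.9, 49.9 and 43.7 CPM across KO (0.59, SE 0.12, edgeR adjusted p = 0.0118, lost without WT 7). KO 3 was the lowest KO library for Utp20 and Utp4, and the groups were apart in all 3 genes. Rrp12 (0.86), Bysl (0.80), Wdr75 (0.51) and Wdr43 (0.50) also rose, and each of these 4 calls ended without at least 2 of the libraries, taken 1 at a time.

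The other 7 small subunit factors did not pass. The highest p belonged to Utp15, of the same early subcomplex as Utp4, at 39.1, 47.5 and 43.7 CPM across WT against 42.8, 50.5 and 49.1 CPM across KO (log2 fold change 0.13, SE 0.12, edgeR adjusted p = 0.459). Heatr1, also of that subcomplex, had a log2 fold change of 0.60 (SE 0.22) but a wide KO spread, 69.1, 64.5 and 42.3 CPM, and reached an edgeR adjusted p = 0.0795. Nob1, the endonuclease that makes the end of 18S ribosomal RNA, was at 0.28, Nop14 at 0.17, Noc4l at 0.46, Ddx10 at 0.37 and Tsr1 at 0.36. Among 31 further small subunit factors outside the 50, 8 rose and 0 fell (18 and 0 at an unadjusted p), with a median of 0.33. Without WT 6, WT 7 or KO 2 only 2 of the 31 rose, a share near the 6.04%, 6.84% and 7.09% of all tested genes, and 3 rose without KO 1, against 8.68%. A fall was called for 1 of them without WT 3, and for 1 with limma-voom. Those with the lowest p were Wdr36 (0.82, SE 0.13, edgeR adjusted p = 0.0054), Rcl1 (0.70, SE 0.12, edgeR adjusted p = 0.00773) and Utp18 (0.59, SE 0.13, edgeR adjusted p = 0.0194, lost without any 1 of WT 6, WT 7, KO 1 or KO 2).

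Of 15 large subunit factors 7 rose. Rrp1b measured 33.5, 33.4 and 33.4 CPM in the WT libraries and 61.9, 54.0 and 62.1 CPM in the KO libraries (log2 fold change 0.83, SE 0.11, edgeR adjusted p = 0.00303). Its paralog Rrp1, per length the second most abundant of the 50 genes in WT (mean FPKM 83.7), measured 269, 298 and 291 CPM across WT against 275, 299 and 295 CPM across KO. That was a log2 fold change of 0.02 (SE 0.10, edgeR adjusted p = 0.898), the smallest of all members, with overlapping groups. Noc2l, of a complex that accompanies pre-60S particles, measured 95.5, 89.9 and 100 CPM across WT against 148, 145 and 155 CPM across KO (0.65, SE 0.09, edgeR adjusted p = 0.00408). Its partner Noc3l was at 0.11 (SE 0.11, edgeR adjusted p = 0.501). Whether the members of these 2 gene couples differ from each other was not tested.

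The PeBoW complex, which is needed to process the 28S and 5.8S ribosomal RNAs, has 3 members among these genes. Bop1 measured 52.5, 59.0 and 53.2 CPM in the WT libraries and 102, 114 and 74.5 CPM in the KO libraries (log2 fold change 0.82, SE 0.17, edgeR adjusted p = 0.0129, lost without WT 7). Wdr12 rose by 0.74 (SE 0.18, edgeR adjusted p = 0.0215, lost without any 1 of WT 6, WT 7, KO 1 or KO 2). Pes1 measured 80.0, 97.1 and 89.3 CPM across WT against 87.8, 102 and 96.0 CPM across KO and did not pass (0.10, SE 0.11, edgeR adjusted p = 0.51). Nop16, outside that complex, measured 33.8, 32.7 and 31.3 CPM across WT against 45.8, 55.1 and 55.2 CPM across KO (0.68, SE 0.12, edgeR adjusted p = 0.00812), with no overlap. It, the RNA methyltransferase gene Nop2 (0.77, SE 0.14) and the helicase gene Ddx18 (0.73, SE 0.14) rose whichever library was left out. Mak16 (0.48), Nip7 (0.32), Ddx56 (0.31), Nle1 (0.26) and Rrs1 (0.13) did not pass. Among 37 further large subunit factors 17 rose and 0 fell (18 and 1 at an unadjusted p), with a median of 0.32. The number that rose was 2 without WT 6 and 3 without KO 2, shares near the 6.04% and 7.09% of all tested genes, and 5 without WT 7, against 6.84%. A fall was called for 1 without WT 3, for 1 without KO 3 and for 2 with limma-voom. They were led by Ebna1bp2 (0.60, SE 0.09), Rsl1d1 (0.66, SE 0.12) and Ftsj3 (0.60, SE 0.12, lost without WT 6), at edgeR adjusted p-values of 0.00539, 0.00877 and 0.0123.

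The ribosomal proteins themselves are the parts that the assembly factors put together, and none of them passed in edgeR with all 6 libraries. Of 32 small subunit proteins 0 rose and 0 fell in the edgeR test, with a median log2 fold change of 0.01, and the same was so for 46 large subunit proteins. At an unadjusted p under 0.05 in edgeR 1 of each list was higher (Rpsa and Rpl29) and 0 lower. DESeq2 called 1 of the 32 higher and 0 of the 46, and limma-voom called 1 higher and 2 lower of the 32 and 1 higher of the 46. With 1 library left out, edgeR called 1 of the 32 higher without WT 7 or without KO 1, 2 of the 32 lower without KO 3, and 1 of the 46 higher without KO 1. The summed level of the small subunit proteins was 17819, 17547 and 16223 CPM in the WT libraries and 14061, 17669 and 21518 CPM in the KO libraries. The large subunit proteins summed to 23189, 23287 and 21460 CPM across WT against 17990, 22723 and 27617 CPM across KO. KO 1 was the lowest and KO 3 the highest library in both sums, so the KO libraries spread to both sides of WT. Counts of single ribosomal protein genes are uncertain, because the table also holds 399 ribosomal protein pseudogenes with 0.218% to 0.333% of all counts. Rps2 had 253 and 293 reads in WT 3 and WT 6 against 11722 in WT 7 and 11614 to 19110 in KO, and its 2.01 log2 fold change did not pass (edgeR adjusted p = 0.278).

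Most of the other genes listed here as Myc targets were also higher in KO. Among 22 such genes outside ribosome biogenesis 18 rose and 0 fell (13 to 18 rose when 1 library was left out), and the median log2 fold change was 0.93. Of all tested genes 13.5% were called higher and 15.5% lower. This list was chosen with earlier results of these data known, so its count is a description only. The spermidine synthase gene Srm measured 65.6, 72.3 and 72.6 CPM in the WT libraries and 146, 160 and 143 CPM in the KO libraries (1.09, SE 0.10, edgeR adjusted p = 0.00125). Cad, of pyrimidine synthesis, rose by 1.17 (SE 0.11, edgeR adjusted p = 0.00133), and Odc1, the first enzyme of polyamine synthesis, by 1.24 (SE 0.12, edgeR adjusted p = 0.00162). The 4 that did not pass were Cdk4, Apex1, Bcat1 and Tert.

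Cell cycle genes, whose levels moved between the groups by more, had another order among the WT libraries and the same order among the KO libraries. All 24 listed rose, and their median log2 fold change was 3.19. Their mean log2 CPM was 4.23, 3.44 and 3.33 in the WT libraries against 6.73, 7.10 and 6.65 in the KO libraries. WT 3 was the WT library with the highest cell cycle level and with the lowest mean of the 48 ribosome biogenesis members. In KO both lists were highest in KO 2 and lowest in KO 3, with means of 6.27, 6.38 and 6.17 for the 48 members. The median of the 50 genes was 0.59 with all libraries and 0.56 without WT 3, and that of the cell cycle genes was 3.19 and 3.76. The part of cell cycle differences in the members' values was not tested.

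**Figure D4:**
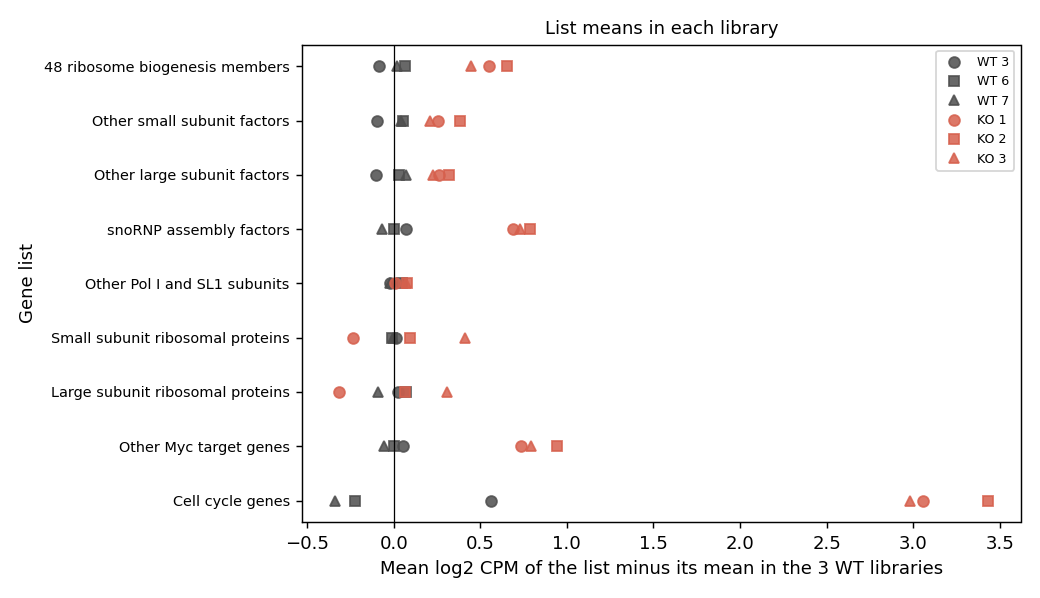
Mean log2 CPM of 9 gene lists in each library, minus the mean of the 3 WT libraries for that list (WT grey, KO red). The 48 ribosome biogenesis members lie at 0.45 to 0.66 in KO, both ribosomal protein lists spread around 0, and WT 3 lies at 0.56 for cell cycle genes and at -0.08 for the 48 members. KO 2 is the highest and KO 3 the lowest KO library for both of these lists.

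Most markers of astrocytes and the oligodendrocyte lineage fell, and those of other cell types were called less often. The shares over all tested genes were 13.5% higher and 15.5% lower. Of 10 astrocyte markers 8 fell, with sums of 2583 to 7936 CPM in WT and 914 to 1070 CPM in KO, and among 10 oligodendrocyte lineage markers 6 fell (3891 to 4672 CPM in WT, 1172 to 2168 CPM in KO). Of 10 neuron markers 1 rose (6 without WT 3, and 0 without any 1 of the other 5 libraries), with sums of 1367 to 2423 CPM in WT and 2332 to 3512 CPM in KO. Of 8 mural and meningeal markers 2 of 7 tested rose (1 without WT 3, WT 6 or WT 7, and 3 without KO 2 or KO 3), with sums of 25.8 to 32.2 CPM in WT and 30.1 to 404 CPM in KO, highest in KO 1. Microglia markers summed to 2.52 to 8.84 CPM in WT and 4.63 to 27.6 CPM in KO, and of 5 tested 0 were called in edgeR. Endothelial markers summed to 5.26 to 7.48 CPM in WT and 3.45 to 6.63 CPM in KO, with Cldn5 and Cdh5 at 0 in all WT libraries. Of 3 endothelial markers tested 1 was called lower and 0 higher in edgeR. The part of these cell types in the members' values was not tested.

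Of the 29 calls 16 held whichever library was left out. The number of members called higher was 29 without WT 3, when 20.2% of all tested genes were called higher. It was 21 without WT 6 and 19 without WT 7, against 6.04% and 6.84% of all tested genes. It was 22 without KO 1, 20 without KO 2 and 31 without KO 3, against 8.68%, 7.09% and 12.5%. For 13 members an overlapping gene had more than 10% of their reads (Polr1e, Nop56, Dkc1, Nhp2, Mybbp1a, Gnl3, Heatr1, Rrp9, Bysl, Tsr1, Bop1, Wdr12 and Mak16), on the other strand in every case, and how many reads are shared was not measured. Among the 37 others 20 rose and 0 fell, with a median log2 fold change of 0.51.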

How the data were processed

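Raw read counts per gene were deposited by the authors for 6 libraries, with FPKM values in columns that carry the same headers as the counts. These columns were identified as FPKM because their values follow from the count, gene length and library total. Per the submitters' processing notes, the build was mm10 and the tools were featureCounts 1.5.0-p3, HISAT2 2.0.5 and DESeq2 1.16.1. Their settings and strand use are not given here. The FPKM gave back the count within 0.05 reads in all 300 member values. Libraries were grouped by title. KO was compared with WT in 1 fit without covariates, with TMM factors of 0.961 to 1.04, the filterByExpr defaults, and edgeR 4.0.16 (R 4.3.3), a quasi-likelihood F test (two-sided) whose p-values were adjusted after Benjamini and Hochberg and called at 0.05. CPM values are TMM-normalised, and means of log2 CPM use CPM + 0.1. The SE is the absolute log2 fold change divided by the square root of F. Every library couple differed beyond counting error, with 17.9 as the lowest ratio of chi-square to its degrees of freedom. The fit was checked on simulated counts.

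The members and gene lists were chosen with earlier results of these data known, so no p is given for a list. Given in full are Myc, Mycn and, per role, the 3 members with the lowest p and the 1 with the highest. Of every other list up to 3 genes with the lowest p, and up to 2 of the opposite direction, were taken, and not all are printed. Other members named with values, such as Ncl and Bop1, were chosen after these were seen. Alternatives were RLE factors, library totals, no count filter or 1 CPM in 3 libraries, DESeq2 1.42.0, limma-voom and limma 3.58.1 on log2(FPKM + 1) or log2(FPKM + 0.1), an adjusted p of 0.01, and leaving out each library. Promoter sequences came from RefSeq.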

Additional observations from a re-analysis of the deposited data

How the results depend on the processing

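Of the 50 members 0 were called lower under any alternative in edgeR, DESeq2 or limma. All genes called numbered 4812 in the test as reported, 8052 with limma-voom, 1828 at an adjusted p of 0.01 and 2178 to 6641 when 1 library was left out. Members called higher numbered 29 as reported, 13 at an adjusted p of 0.01, 19 to 31 when 1 library was left out, and 29 to 36 under the other alternatives. Of the 29 calls, 28 were kept without WT 3, 21 without WT 6, 19 without WT 7, 22 without KO 1, 20 without KO 2 and 29 without KO 3. The members' median log2 fold change ranged from 0.55 to 0.66. The sign turned for 3 genes that had not passed. Leaving out 1 library gave -0.00106 to 0.363 for Myc, -0.0456 to 0.121 for Ubtf and -0.0239 to 0.0820 for Rrp1, the lowest value each time without WT 3. For Rrp1 it also turned without KO 2 (-8.3e-05) and with limma-voom (-0.0141). The cause was not tested. No paired analysis was possible because the groups share only 1 replicate number. The least abundant member averaged 19.8 CPM, well above the 0.136 to 0.179 CPM of 3 reads.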
